A study of Mus musculus with 30 samples.

Results

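The livers of standard-diet mice from a treatment study (NFD, 18 weeks) were compared with those of standard-diet mice from a prevention study (NC, 10 weeks). The members are the 5 NFD and 5 NC libraries, 10 of the 30 libraries of the series, chosen by their column names in the deposited count table. NFD mice were on the standard diet for 18 weeks in all and had water as vehicle in the last 8 of them, by a route not given for that study. NC mice ate the standard diet for 10 weeks and were given the water vehicle by daily oral gavage. Neither group received UB-NPs, the preparation under study in the series, and the strain, age and sex of the animals are not given in the labels. Each group came from its own study, so study and duration are confounded: the effect of 8 more weeks on the diet and any difference between the studies in animals, season, hour of killing, feeding before killing or handling of the tissue cannot be told apart. The design text gives 10 mice per group and does not say whether a library is 1 mouse, so p-values measure the spread between these libraries. The same studies also gave high-fat-diet livers with water, HFD (18 weeks in all) and MC (10 weeks), 5 libraries each, which carry the same confounding and share no library with NFD and NC. The labels call HFD mice obese, after 10 weeks of high-fat diet before the 8 weeks with water, and call MC mice normal, so the length of high-fat feeding differs as well. They are used below only to show where the standard-diet difference is also seen and where it differs.

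RNA sequencing of liver averages over hepatocytes, which carry out lipid, glucose, amino acid, bile acid and plasma protein synthesis, and over fewer macrophages (Kupffer cells), endothelial, stellate and bile duct cells. Hormonal and antiviral regulation reach most of the genes described here. Interferons, made on infection or tissue damage, act through STAT and IRF factors to switch on antiviral genes in nearly every cell, while insulin, glucocorticoids, growth hormone and bile acids set the metabolic genes of hepatocytes from hour to hour, so that feeding state, time of day and age all move them. In bulk tissue, fewer cells of a type and less RNA per cell cannot be told apart.

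Total counts per library were 17000000 to 18200000 in NFD and 17300000 to 18500000 in NC, rounded to 3 digits. Transcripts of the mitochondrial genome and of nuclear genes that resemble them took 68.4 ± 10.4% of the counts in NFD and 67.2 ± 4.42% in NC (SD, n = 5 each), with 56.2% at the lowest and 81.0% at the highest, both in NFD (exact two-sided permutation p = 0.810 for the difference). Between 3440000 and 7450000 counts per library were left for all other genes. Hepatocyte markers summed to 18990 to 27900 CPM (counts scaled for library size and composition) in NFD and 21330 to 33990 CPM in NC, so the libraries carry the labelled tissue. Albumin was at 12100 ± 2120 CPM in NFD and 13900 ± 3940 CPM in NC (SD, n = 5 each). Of 15 pancreas markers, 4 had no count in any of the 10 libraries (Prss1, Amy2b, Ins2 and Gcg). The others had some counts, and the list summed to 4.15 to 12.9 CPM in NFD and 4.76 to 11.5 CPM in NC. Of its members 2 were abundant enough to be tested and 0 were called.

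Some libraries stood apart from the rest of their group. The principal components of the 6394 genes with a mean of at least 5 CPM put NFD1 to NFD4 at 18.9 to 42.6 on the first axis, NFD5 at -13.5, NC1 to NC4 at -36.1 to -19.5 and NC5 at 2.69. NFD5, which had the highest mitochondrial share, lay at -35.4 on the second axis, and its mean correlation was 0.868 with the other NFD libraries and 0.913 with the NC libraries. NC5 correlated at 0.927 with its own group and at 0.918 with NFD. These points share depth and composition, so the correlations are a description. For the main gene lists, counts are also given without NFD5 and without NC5.

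**Figure D1:**
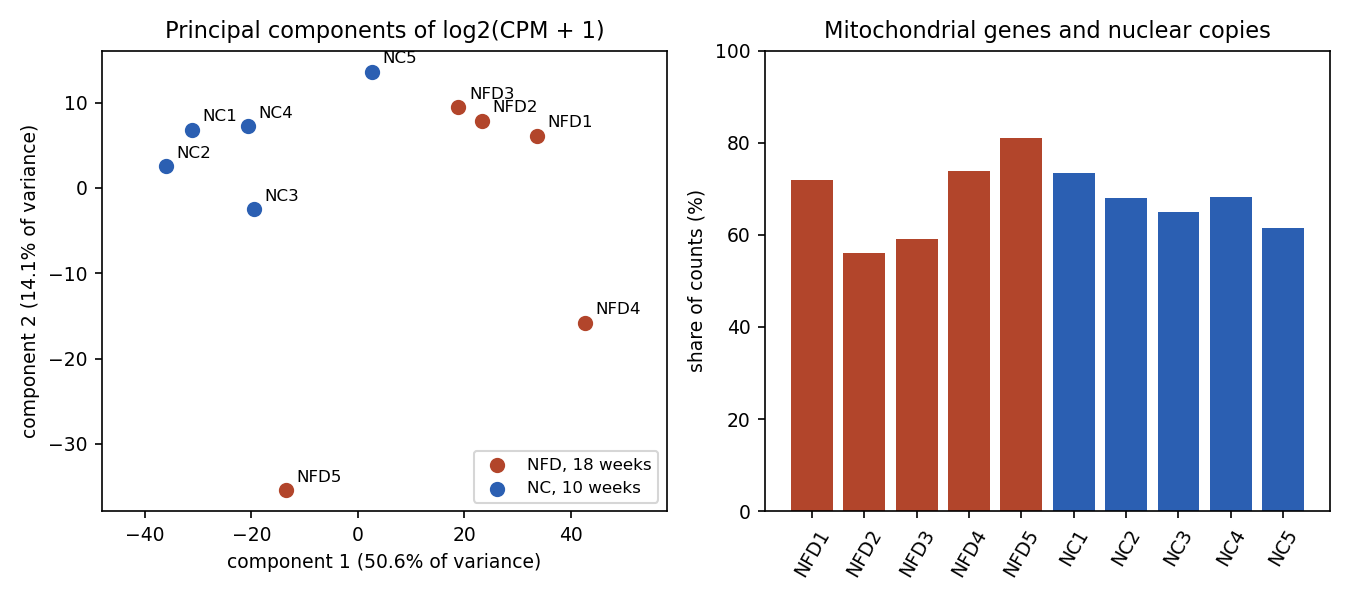
Left, the 10 libraries on the first 2 principal components of log2(CPM + 1), each point 1 library. Right, the share of each library's counts from mitochondrial genes and their nuclear copies, in percent. NFD5 lies apart at -35.4 on the second component and has the highest share, 81.0%.

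Of 12183 genes tested, 908 (7.45%) differed between the groups at an adjusted p under 0.05 (edgeR quasi-likelihood F-test, Benjamini-Hochberg adjustment), 544 (4.47%) of them higher and 364 (2.99%) lower in NFD. The median log2 fold change over all tested genes was 0.02, and the called genes had a median absolute log2 fold change of 1.13. In 554 of the 908 the lowest library of 1 group was above the highest of the other, and such separation was seen in 7.42% of all tested genes. The count moved with single libraries: 2418 genes were called without NFD5 and 1414 without NC5. It was 203, 189, 463 and 215 without NC1, NC2, NC3 and NC4, and 307, 410, 547 and 287 without NFD1, NFD2, NFD3 and NFD4. The direction of all 908 stayed as it was in each of these 10 fits. On the deposited TPM values (transcript abundances scaled for length and library total) a limma fit called 54 genes, 14 higher and 40 lower in NFD. Of all the gene lists described below, only the interferon list (13 lower) and the liver hormones (1 higher) had calls on TPM. The counts of list members below stand against 4.47% higher and 2.99% lower over all tested genes in NFD minus NC.

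The gene list with the most called members was the interferon response. Of its 36 members, all tested, 22 were lower and 0 were higher in NFD, and the median log2 fold change of the 36 was -1.60, against 0.02 over all tested genes. The summed level of the list was 320.5 to 436.0 CPM in NFD and 611.9 to 757.3 CPM in NC, without overlap. The count of lower members was 22 without NFD5, 20 without NC5, and 15 to 22 when any 1 of the 10 libraries was left out, the lowest without NC1, with 1 member called higher without NC5. On TPM it was 13.

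The promoters of 3 of these genes are shown because they carry the element through which interferon-activated factors are known to act. The interferon-stimulated response element was searched as GAAANNGAAA on both strands in the 250 bases before the gene start in the RefSeq promoter table (build GRCm38.p6). Of the 36 members, 25 were in the table and 16 of those held a match (64.0%). Of the 22 lower in NFD, 15 were in the table and 10 held a match (66.7%), so the share was about that of the whole list. A match was present in 3.37% of the 9186 tested genes in the table and in 3.46% of its 27025 genes. Capitals mark the matches, overlapping ones run together, and each sequence runs 5′ to 3′ on the gene's strand. A match is a description of letters and not a bound site, and Irf7, described below, has none in this window.
Isg15, chr4:156200819-156201068, minus strand: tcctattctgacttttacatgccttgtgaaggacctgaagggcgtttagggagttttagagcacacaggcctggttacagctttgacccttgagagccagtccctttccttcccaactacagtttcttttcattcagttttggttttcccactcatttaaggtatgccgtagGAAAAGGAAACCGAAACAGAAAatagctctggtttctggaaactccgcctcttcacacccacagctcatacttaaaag
Ifit3, chr19:34583279-34583528, plus strand: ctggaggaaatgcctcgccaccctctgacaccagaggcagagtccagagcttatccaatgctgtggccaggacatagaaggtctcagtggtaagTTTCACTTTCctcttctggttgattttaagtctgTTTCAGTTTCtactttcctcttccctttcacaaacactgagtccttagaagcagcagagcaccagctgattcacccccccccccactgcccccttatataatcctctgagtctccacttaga
Oas3, chr5:120777660-120777909, minus strand: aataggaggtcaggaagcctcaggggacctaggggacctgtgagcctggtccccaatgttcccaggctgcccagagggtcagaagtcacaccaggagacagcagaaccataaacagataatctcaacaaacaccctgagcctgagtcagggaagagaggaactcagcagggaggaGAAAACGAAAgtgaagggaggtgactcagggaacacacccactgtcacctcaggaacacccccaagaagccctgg
In Isg15 the 3 overlapping matches begin 78, 72 and 66 bases before the start, in Ifit3 the 2 matches begin 156 and 122 bases before it, and in Oas3 the match begins 75 bases before it.

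Irf7 encodes the transcription factor that amplifies the interferon response (ENSMUSG00000025498, chromosome 7, 140842619 to 140846398 in GRCm39). It was at 49.0, 34.1, 35.1, 28.9 and 60.6 CPM in the NFD libraries and at 168, 150, 144, 130 and 146 CPM in the NC libraries. Every NFD library lay below every NC library, and the log2 fold change was -1.83 (SE 0.23, adjusted p = 0.000494). Ifit3, an antiviral protein with tetratricopeptide repeats, was at 2.99, 5.83, 6.58, 7.41 and 9.94 CPM in NFD and at 34.5, 30.9, 27.0, 31.1 and 30.3 CPM in NC. Its groups were as far apart, including NFD5 and NC5 (log2 fold change -2.24, SE 0.26, adjusted p = 0.000494). Isg15, a ubiquitin-like protein attached to other proteins after interferon, was at 3.19, 2.76, 3.09, 2.49 and 0.61 CPM in NFD and at 13.7, 12.7, 10.1, 20.5 and 22.9 CPM in NC. The lowest value of all was in NFD5 (log2 fold change -2.69, SE 0.35, adjusted p = 0.000581).

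Oas3, an oligoadenylate synthetase that answers double-stranded RNA, was the member with the largest fall. It was at 0.882, 0.57, 0.589, 0.0593 and 0.959 CPM in NFD and at 11, 6.41, 5.53, 9.07 and 4.88 CPM in NC (log2 fold change -3.61, SE 0.45, adjusted p = 0.000494). The NFD values rest on few counts, so the size of this change is less certain than its direction. Rtp4, an interferon-induced receptor chaperone, stayed within 4.95 to 6.58 CPM in NFD and 16.1 to 20.5 CPM in NC (log2 fold change -1.71, SE 0.19, adjusted p = 0.000494). Usp18, which strips Isg15 from proteins and damps the interferon receptor, fell to 1.64 ± 0.341 CPM in NFD, against 8.44 ± 2.07 CPM in NC (SD, n = 5 each, log2 fold change -2.36, adjusted p = 0.000494). Ifit2 fell by 2.79 and Ifi44 by 2.76 on the log2 scale, with NFD5 the highest NFD library in both.

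Some genes off the list, chosen for this paragraph after their values were seen, are also known to be induced by interferon. Ly6a, a surface antigen of the Ly6 family, was at 1.83 ± 1.0 CPM in NFD and 11.6 ± 3.09 CPM in NC (SD, n = 5 each, log2 fold change -2.68, adjusted p = 0.000494). Gbp2b, a guanylate-binding GTPase, fell by 2.86 on the log2 scale, Tgtp1, an immunity-related GTPase, by 2.68, and Phf11b by 3.14. Ifi205, of the interferon-inducible DNA sensor family, fell by 3.22, and its relative Ifi207 by 1.12. Plac8 was at 3.39 ± 0.942 CPM in NFD and 19.4 ± 9.11 CPM in NC (SD, n = 5 each, log2 fold change -2.52, adjusted p = 0.000494). The Gbp, Tgtp, Ifit, Oas and Ifi200-type genes have near-identical copies, and how the authors assigned shared reads is not stated, so values of single copies are uncertain. Irf7, Ifit3, Oas3, Isg15, Rtp4, Usp18, Ifit2, Ly6a, Plac8 and Phf11b were called under all 20 alternatives, Ifi44 under 16 and Ifi207 under 10.

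**Figure D2:**
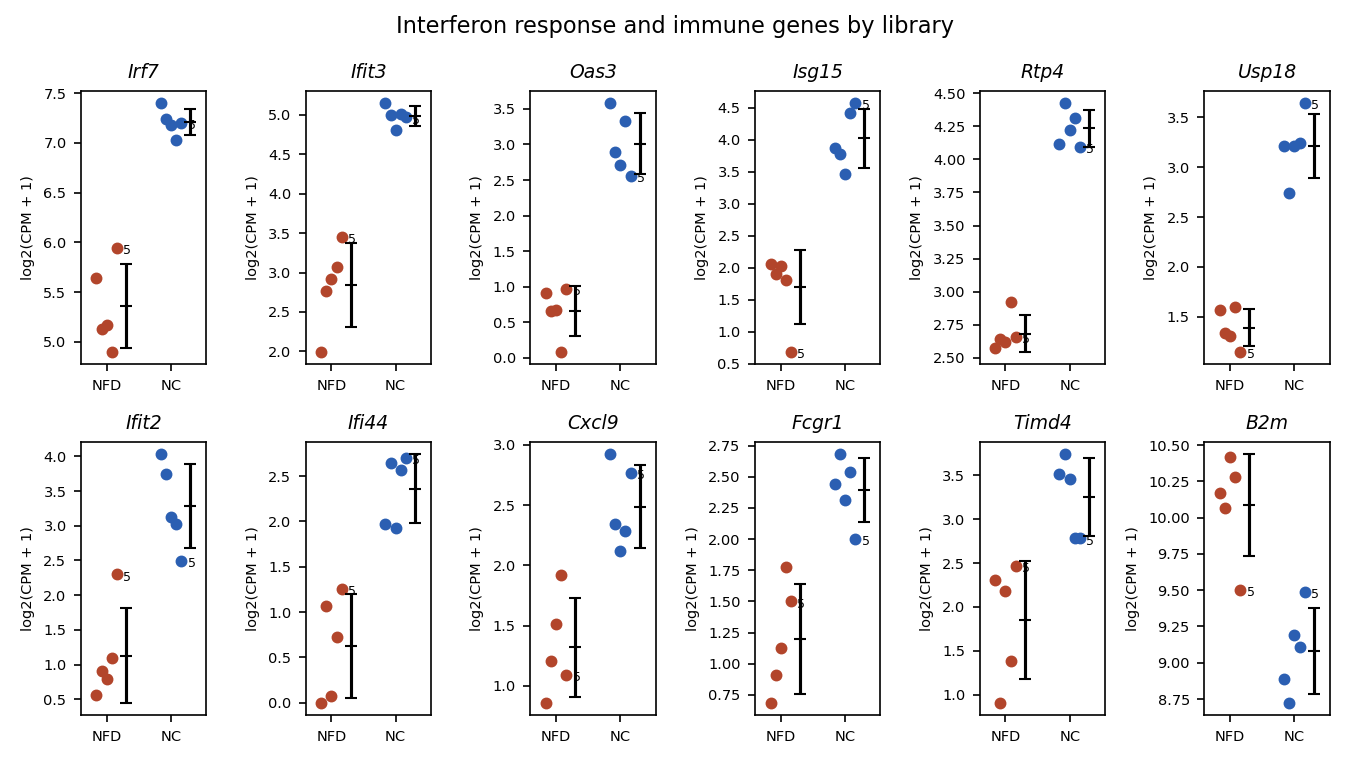
Each panel shows 1 gene, with log2(CPM + 1) on the y axis, 1 point per library, NFD left of NC, the fifth library of each group numbered, and the mean and SD beside the points. For Irf7 the NFD libraries reach 60.6 CPM at most and the NC libraries 130 CPM at least, and B2m runs the other way.

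Markers of immune cells were measured beside the interferon genes. Of 13 tested Kupffer cell markers, 3 were lower and 0 higher in NFD, with a median log2 fold change of -0.82. The summed level of the 14 markers in the table was 123.0 to 275.9 CPM in NFD and 199.8 to 367.3 CPM in NC, with overlap. Timd4, a phosphatidylserine receptor of resident macrophages, was at 3.94, 0.876, 3.53, 1.6 and 4.53 CPM in NFD and at 10.4, 12.4, 9.95, 5.91 and 5.88 CPM in NC (log2 fold change -1.64, adjusted p = 0.0234). Cd5l, a secreted scavenger protein, fell by 1.27 on the log2 scale and C1qb, a complement subunit, by 0.95, with NFD5 the highest NFD library in all 3. Without NFD5, 9 of the 13 were lower. The count was 2 without NC5, 1 without NFD1, NFD2, NFD3 or NC3, 2 without NC4 and 0 without NFD4, NC1 or NC2. The part of macrophage content in the interferon result was not tested.

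Among chemokines, 2 of 13 were lower and 0 higher, against 2.99% lower over all tested genes, and 0 were lower without NFD1, NFD2 or NC1. Cxcl9, an interferon-gamma target that attracts T cells, was at 1.58 ± 0.774 CPM in NFD and 4.74 ± 1.39 CPM in NC (SD, n = 5 each, adjusted p = 0.0214), and Ccl6 fell by 1.74 on the log2 scale. Fcgr1, an Fc receptor of monocytes and macrophages, fell by 1.65 as the only call of 7 infiltrating macrophage markers, of which 3 were lower without NFD5 and 0 without NFD2, NC1, NC2 or NC4. H2-Aa, an MHC class II chain, fell by 0.79 as the only 1 of 7 class II genes called. The class II count was 1 without NFD2 or NFD5 and 0 without any 1 of the other 8 libraries. B2m, the light chain of MHC class I and itself interferon-inducible, ran the other way: it was at 1150, 1070, 1370, 1240 and 725 CPM in NFD and at 473, 422, 583, 552 and 718 CPM in NC (log2 fold change 1.02, SE 0.24, adjusted p = 0.0238). NFD5 and NC5 were nearly level for it. It was the only called member of 13 class I genes, of which 2 were higher without NFD5 or NC5 and 0 without NFD1, NFD3, NC1, NC2 or NC4. T and NK cell, neutrophil, and B and plasma cell markers gave 0 calls among 5, 4 and 8 tested members, and T and NK markers summed to 3.88 to 9.67 CPM in NFD and 4.15 to 11 CPM in NC. These low levels limit what the test could detect. Chil3, Ly6g, Mpo and Ngp had no count in any of the 10 libraries.

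On the high-fat diet the interferon genes did not fall between the studies. In HFD minus MC, 2988 of 13206 genes (22.6%) passed the test, with 10.4% above and 12.3% below MC. There 11 of the 36 members were higher, 0 were lower and their median log2 fold change was 0.51, against 0.07 over all genes tested there. The difference of the 2 differences was tested in 1 fit of the 20 libraries, in which 389 of 13867 genes (2.81%) were called and 1.33% were above 0. Of the 36 members, 24 were called there, all above 0. On the scale of that fit Irf7 was at 87.3 ± 25.1 CPM in HFD, 64.9 ± 14.9 in MC, 47.8 ± 15.1 in NFD and 169 ± 16 in NC (SD, n = 5 each), so NC was the highest of the 4 groups. Its difference of differences was 2.25 (SE 0.32, adjusted p = 0.000229). For Rtp4 the means were 12.4, 8.55, 6.26 and 20.5 CPM in the same order, with a difference of differences of 2.24 (adjusted p = 1.63e-05). Fcgr1, Cxcl9, Il1rn, C1qb and H2-Aa were also called in this test, with 2.96, 2.28, 2.13, 1.94 and 1.57 on the log2 scale. Over all genes the 389 calls of this test were 101 with mitochondrial share as a covariate and 60 on TPM. How many members of a list were called in this test under those settings is not given here.

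Some genes of fat synthesis were higher in NFD. Of 22 tested members of the fatty acid and triglyceride synthesis list, 5 rose and 0 fell, with a median log2 fold change of 0.46, and the summed level was 1443 to 1920 CPM in NFD and 923.3 to 1051 CPM in NC. Fasn, fatty acid synthase (chromosome 11, 120696672 to 120715995), was at 32.9, 20, 20.3, 20.9 and 11.9 CPM in NFD and at 6.66, 4.74, 3.97, 9.23 and 8.38 CPM in NC. The groups did not overlap, NFD5 being the lowest of its group (log2 fold change 1.68, SE 0.29, adjusted p = 0.00515). Elovl6, which elongates palmitate, was at 17.6, 26.4, 18.7, 22.8 and 10.0 CPM in NFD and at 5.17, 4.12, 5.14, 4.48 and 9.13 CPM in NC. Only NFD5 and NC5 came close to each other (log2 fold change 1.77, SE 0.28, adjusted p = 0.00332). Scd1, the stearoyl-CoA desaturase, was at 922 ± 184 CPM in NFD and 415 ± 97.6 CPM in NC (SD, n = 5 each, log2 fold change 1.15, adjusted p = 0.0143). Srebf1, the factor that carries the insulin signal to these genes, was 1.47 higher on the log2 scale (adjusted p = 0.0234), with NC5 at 7.88 CPM above NFD5 at 5.66 CPM. The 5 became 7 without NFD5, with 2 members lower, and 6 without NC5. They were 3 without NFD1, NC1, NC3 or NC4, 2 without NC2, and 0 on TPM.

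Of 27 tested genes of glucose handling 2 rose and 4 fell, against 4.47% higher and 2.99% lower over all tested genes. Irs2, an insulin receptor substrate that fasting raises and feeding lowers, was at 2.66 ± 0.964 CPM in NFD and 8.64 ± 3.21 CPM in NC (SD, n = 5 each, log2 fold change -1.68, adjusted p = 0.0101). Slc2a2, the hepatocyte glucose carrier, rose by 1.03 and Ldha, lactate dehydrogenase, fell by 1.19 on the log2 scale. Pck1, the key enzyme of glucose production, was at 1540 ± 236 CPM in NFD and 1850 ± 183 CPM in NC (SD, n = 5 each) and did not pass the test (adjusted p = 0.477). Neither did Pdk4, Fgf21 or Cpt1a, further genes that fasting raises, with log2 fold changes of -0.31, -0.21 and -0.38. Without NFD5 the glucose list had 5 higher and 5 lower, without NC5 4 higher and 5 lower, and without NC4 1 higher and 2 lower.

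Some genes that glucocorticoids induce were lower in NFD. Of 18 tested, 4 fell and 0 rose, with a median log2 fold change of -0.42 and summed levels of 2591 to 2732 CPM in NFD and 3375 to 4170 CPM in NC. Tat, tyrosine aminotransferase, was at 253, 259, 321, 230 and 179 CPM in NFD and at 716, 1100, 701, 610 and 485 CPM in NC (log2 fold change -1.54, SE 0.26, adjusted p = 0.00485). All NFD libraries were below all NC libraries, NFD5 and NC5 being the lowest of their groups. Tsc22d3, the glucocorticoid-induced leucine zipper, lay within 31.6 to 38.2 CPM in NFD and 49.3 to 58.4 CPM in NC (log2 fold change -0.62, adjusted p = 0.0369). Fkbp5, a co-chaperone of the glucocorticoid receptor, fell by 0.95 and Ddit4, an inhibitor of mTOR signalling, by 1.78, with 1 NC library, NC2, at 21.7 CPM. Zfp36, an RNA-binding protein that destabilises cytokine transcripts, was at 10.7 ± 3.47 CPM in NFD and 35.5 ± 9.14 CPM in NC (SD, n = 5 each, log2 fold change -1.73, adjusted p = 0.0023). It and Junb, which fell by 1.5, were the 2 called of 18 immediate-early genes, and 1 was called without NFD2, NFD4 or any 1 NC library. The 4 glucocorticoid members became 1 without NFD1, NFD2 or NC2 and 2 without NFD3, NFD4, NC1, NC3 or NC4. They stayed 4 without NC5 and were 5 without NFD5. In HFD minus MC, 5 of 18 were higher and 2 lower, against 10.4% and 12.3% of all genes tested there. Tsc22d3 and Ddit4 were among 3 members called in the difference of differences, at 1.16 and 2.53, against 2.81% called over all genes.

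Some enzymes of amino acid breakdown and the urea cycle were lower, 6 of 29 falling and 0 rising, with a median of -0.56. Tat, counted above among the glucocorticoid genes, is among the 6. Cth, which makes cysteine from cystathionine, was at 124, 135, 233, 104 and 118 CPM in NFD and at 507, 497, 416, 314 and 221 CPM in NC. NFD3 lay just above NC5, the only overlap (log2 fold change -1.45, SE 0.28, adjusted p = 0.00957). Tdo2, which opens the tryptophan ring, was at 128 ± 18.6 CPM in NFD and 294 ± 42.9 CPM in NC (SD, n = 5 each, log2 fold change -1.20, adjusted p = 0.00515). Slc25a15, the mitochondrial ornithine carrier, fell by 1.00 and Hal, histidine ammonia-lyase, by 0.73. In HFD minus MC 14 of 29 were lower and 1 higher, against 12.3% and 10.4% over all genes tested there. In the difference of differences 0 of 29 were called, against 2.81% over all genes. The count was 9 without NFD5, 10 without NC5 with 1 member higher, and 3 without NFD1, NFD2, NC1, NC2 or NC4.

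Of 30 genes of fatty acid oxidation and ketone synthesis, 4 fell and 1 rose, against 2.99% lower and 4.47% higher over all tested genes. Etfdh, which passes electrons from oxidation to ubiquinone, was at 64.6 ± 17.9 CPM in NFD and 146 ± 49.0 CPM in NC (SD, n = 5 each, log2 fold change -1.18, adjusted p = 0.0185), with NFD5 at 93.7 CPM above NC5 at 71.5 CPM. Hadhb, a subunit of the trifunctional protein, fell by 0.89 and Ppara, the fatty acid receptor that drives oxidation, by 0.86. The riser was Creb3l3, a membrane-bound factor of fasting metabolism, at 0.97. Cyp4a14, a target of Ppara, was at 147 ± 108 CPM in NFD and 248 ± 78.8 CPM in NC and did not pass the test (SD, n = 5 each, adjusted p = 0.302). The falls numbered 5 without NFD5, 6 without NC5 and 0 without NFD1, NFD4, NC1, NC2 or NC4. Among lipid droplet and uptake genes 3 of 19 rose and 1 fell: Plin4 rose by 1.47, G0s2, an inhibitor of triglyceride lipase, by 1.25 and Slc27a2, a fatty acid transporter, by 0.85, while Plin5 fell by 1.00. These counts were 4 and 1 without NFD5, 4 and 2 without NC5, and 0 and 0 without NFD4, NC1, NC2 or NC4. Apoa4, a lipoprotein component, was at 42.2 ± 17.6 CPM in NFD and 133 ± 62.9 CPM in NC (SD, n = 5 each, log2 fold change -1.66, adjusted p = 0.0112), the only call among 20 apolipoprotein genes, of which 8 were higher without NFD5 and 4 without NC5. Fabp2, a fatty acid binding protein known from intestine, was at 12.9 ± 4.92 CPM in NFD and 35.5 ± 5.17 CPM in NC (SD, n = 5 each, log2 fold change -1.45, adjusted p = 0.005). Of the other 8 gut and gall bladder markers, 4 had no count in any library and none was abundant enough to be tested.

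**Figure D3:**
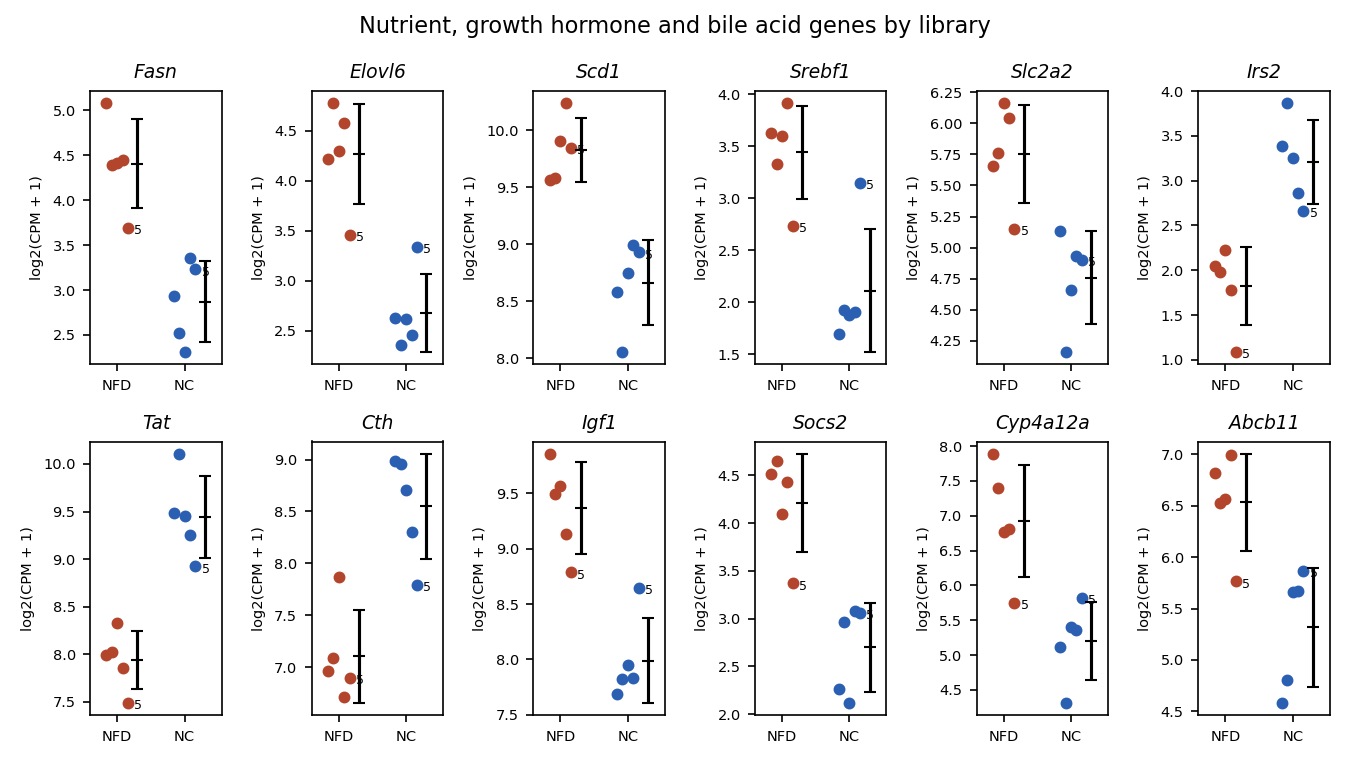
Each panel shows 1 gene, with log2(CPM + 1) on the y axis, 1 point per library, NFD left of NC, the fifth library of each group numbered, and the mean and SD beside the points. Fasn, Igf1 and Socs2 are higher in every NFD library than in any NC library, and Tat and Irs2 lower.

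Some genes under growth hormone were higher in NFD. Igf1, the growth factor that the liver secretes into blood (chromosome 10, 87693642 to 87772904), was at 924, 719, 754, 561 and 440 CPM in NFD and at 205, 226, 247, 227 and 400 CPM in NC. The groups did not overlap, and NFD5 and NC5 were again the nearest (log2 fold change 1.38, SE 0.26, adjusted p = 0.0087). Socs2, an inhibitor of growth hormone signalling that the hormone induces, was at 21.8, 24, 16.1, 20.6 and 9.33 CPM in NFD and at 3.81, 6.83, 3.35, 7.46 and 7.34 CPM in NC (log2 fold change 1.67, SE 0.29, adjusted p = 0.00533). Cish, of the same family and also induced by the hormone, rose by 1.47, and Serpina3g fell by 1.51 with NC2 at 31.5 CPM far above the other libraries. In all, 3 of 15 axis genes rose and 1 fell. The risers numbered 5 without NFD5, 3 without NC5 or NC3, and 2 without each of the other 7 libraries, and they were 2 with adjustment for GC content and transcript length. Igfbp2, a binding protein that growth hormone lowers, was at 96.1 ± 38.5 CPM in NFD and 75.2 ± 27.8 CPM in NC and did not pass the test (SD, n = 5 each, adjusted p = 0.489).

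Of 24 genes that are higher in male than in female mouse liver, which the pulse pattern of growth hormone sets, 3 rose and 0 fell. Cyp4a12a, a fatty acid hydroxylase, was at 236, 167, 108, 111 and 52.6 CPM in NFD and at 33.6, 18.9, 41.5, 40.1 and 55.6 CPM in NC (log2 fold change 1.83, SE 0.35, adjusted p = 0.00986). NFD5 lay below NC5 and was the only NFD library within the NC range. Cyp2u1, another fatty acid hydroxylase, rose by 1.86 and the pseudogene Serpina4-ps1 by 1.91. The count was 8 without NFD5 and 6 without NC5, and 2 to 4 without any 1 of the other libraries, and it was 7 with adjustment for GC content and transcript length. On the high-fat diet 20 of 23 tested members were lower in HFD than in MC, against 12.3% of all genes tested there. In the difference of differences 16 were called, all below 0, against 2.81% called over all genes, with the limits given above. There Cyp4a12a was at 66.5 ± 28.3 CPM in HFD, 159 ± 82.0 in MC, 155 ± 79.8 in NFD and 43.4 ± 15.3 in NC (SD, n = 5 each), with a difference of differences of -3.10 (adjusted p = 0.00757). Slco1a1, an organic anion carrier of this list, did not pass the test in NFD minus NC (log2 fold change 0.66, adjusted p = 0.0738) and had a difference of -3.71 (adjusted p = 0.000974). Of 9 tested female-biased genes 0 were called.

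Bile acid genes were higher where they were called, 7 of 23 rising and 0 falling, with a median log2 fold change of 0.32. Abcb11, the pump that exports bile salts into bile, was at 112, 91.1, 93.3, 126 and 53.3 CPM in NFD and at 23, 27, 49.7, 49.8 and 57.3 CPM in NC. NFD5 lay below NC5 and the other 4 NFD libraries above all NC libraries (log2 fold change 1.20, SE 0.28, adjusted p = 0.0219). Cyp27a1, of the alternative synthesis pathway, rose by 0.84, Hsd3b7, a shared early enzyme, by 1.00 and Fgfr4, the receptor for the gut hormone that represses synthesis, by 1.19. Cyp7a1, the rate-limiting enzyme, was at 12.1 ± 10.0 CPM in NFD and 10.2 ± 5.81 CPM in NC (SD, n = 5 each, adjusted p = 0.782). The 7 were 9 without NFD5, 7 without NC5, 3 without NFD2, 2 without NC3, 1 without NFD3 or NFD4 and 0 without NFD1, NC1, NC2 or NC4. In cholesterol synthesis 3 of 26 rose and 0 fell. Hmgcs1, an early enzyme of the pathway, was at 112 ± 31.8 CPM in NFD and 45.7 ± 7.86 CPM in NC (SD, n = 5 each, log2 fold change 1.29, adjusted p = 0.00581). Sc5d, a late desaturase, rose by 0.79. The 3 rises were 5 without NFD5 or with adjustment for GC content and transcript length, 4 without NC5, 2 without NFD2 or NFD4 and 1 without NFD1, NFD3, NC1, NC2, NC3 or NC4.

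Hepatocytes near the central vein and near the portal vein express different enzymes. Of 16 tested pericentral genes 4 rose and 0 fell, with a median of 0.59, and of 15 periportal genes 2 fell and 0 rose, with a median of -0.47. The pericentral list summed to 1610 to 2599 CPM in NFD and 2312 to 2674 CPM in NC, so its summed level was not higher in NFD. The periportal list summed to 4657 to 6294 CPM in NFD and 5797 to 6669 CPM in NC, with overlap. Cyp27a1, named among the bile acid genes, is among the 4 pericentral rises. Cyp1a2, a pericentral drug-metabolising P450, was at 158, 175, 187, 112 and 34.9 CPM in NFD and at 57.3, 35.6, 40.6, 42.8 and 81.3 CPM in NC (log2 fold change 1.37, adjusted p = 0.0338). NFD5 was the lowest of all 10 libraries and NC5 the highest NC library. Tbx3, a factor of the pericentral zone, rose by 1.42 and Cyp2c37, a pericentral P450, by 1.24. The periportal falls were Hal, named above, and Ctsc, a lysosomal protease, at -0.74. Their count was 5 without NFD5, 4 without NC5, 2 without NFD3 and 0 without any 1 of the other 7 libraries. The pericentral count was 6 without NFD5, with 1 lower, 4 without NC5, 1 without NFD1, NFD2, NFD4 or NC3 and 0 without NFD3, NC1, NC2 or NC4. Of 16 tested targets of the xenobiotic receptors CAR and PXR 3 rose and 0 fell, with Cyp2c37 and Cyp2c50 (0.85) among the rises. These rises were 7 without NFD5, 5 without NC5 and 0 without any 1 of the other libraries. Cyp3a11, the main target of PXR, was at 375 ± 254 CPM in NFD and 327 ± 94.2 CPM in NC (SD, n = 5 each, adjusted p = 0.795). Among 23 hepatocyte transcription factors 3 rose and 2 fell, Onecut2 rising by 0.90 and Nr5a2, a regulator of bile acid and steroid genes, falling by 0.71. The rises were 5 without NFD5, 4 without NC5 and 1 without NFD1, NC1, NC2, NC3 or NC4, and the falls were 0 without NFD1, NFD2, NC1, NC2 or NC4.

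Of 23 tested liver hormones 4 rose, Igf1 of the growth hormone axis among them, and 1 fell. Tsku, a secreted proteoglycan whose level follows the energy state of the liver, was at 21.9, 18.8, 19.3, 33.8 and 14.6 CPM in NFD and at 5.51, 3.07, 3.02, 2.49 and 8.76 CPM in NC (log2 fold change 2.24, SE 0.34, adjusted p = 0.00235), without overlap and under all 20 alternatives. Inhbe, an activin subunit, rose by 1.02, and Selenop, the selenium carrier of plasma, fell by 1.03. The hormone rises were 7 without NFD5, 5 without NC5 and 2 without NFD1, NFD2, NFD4, NC2, NC3 or NC4, and the fall was not called without NFD1, NFD4, NC1, NC2 or NC4. Of 25 acute phase genes 3 fell and 0 rose: Serpina3m, a protease inhibitor, by 1.48 (adjusted p = 0.00332), Crp by 1.09 and Il1rn, the interleukin antagonist, by 1.41. Saa1 and Lcn2, the steepest risers of an acute phase reaction, did not pass the test, with log2 fold changes of 0.51 and -0.73 (adjusted p = 0.662 and 0.578). The 3 falls were 5 without NFD5, 6 without NC5, 2 without NFD1, NFD2, NFD3 or NC3, and 1 without NFD4, NC1, NC2 or NC4 or with adjustment for GC content and transcript length.

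**Figure D4:**
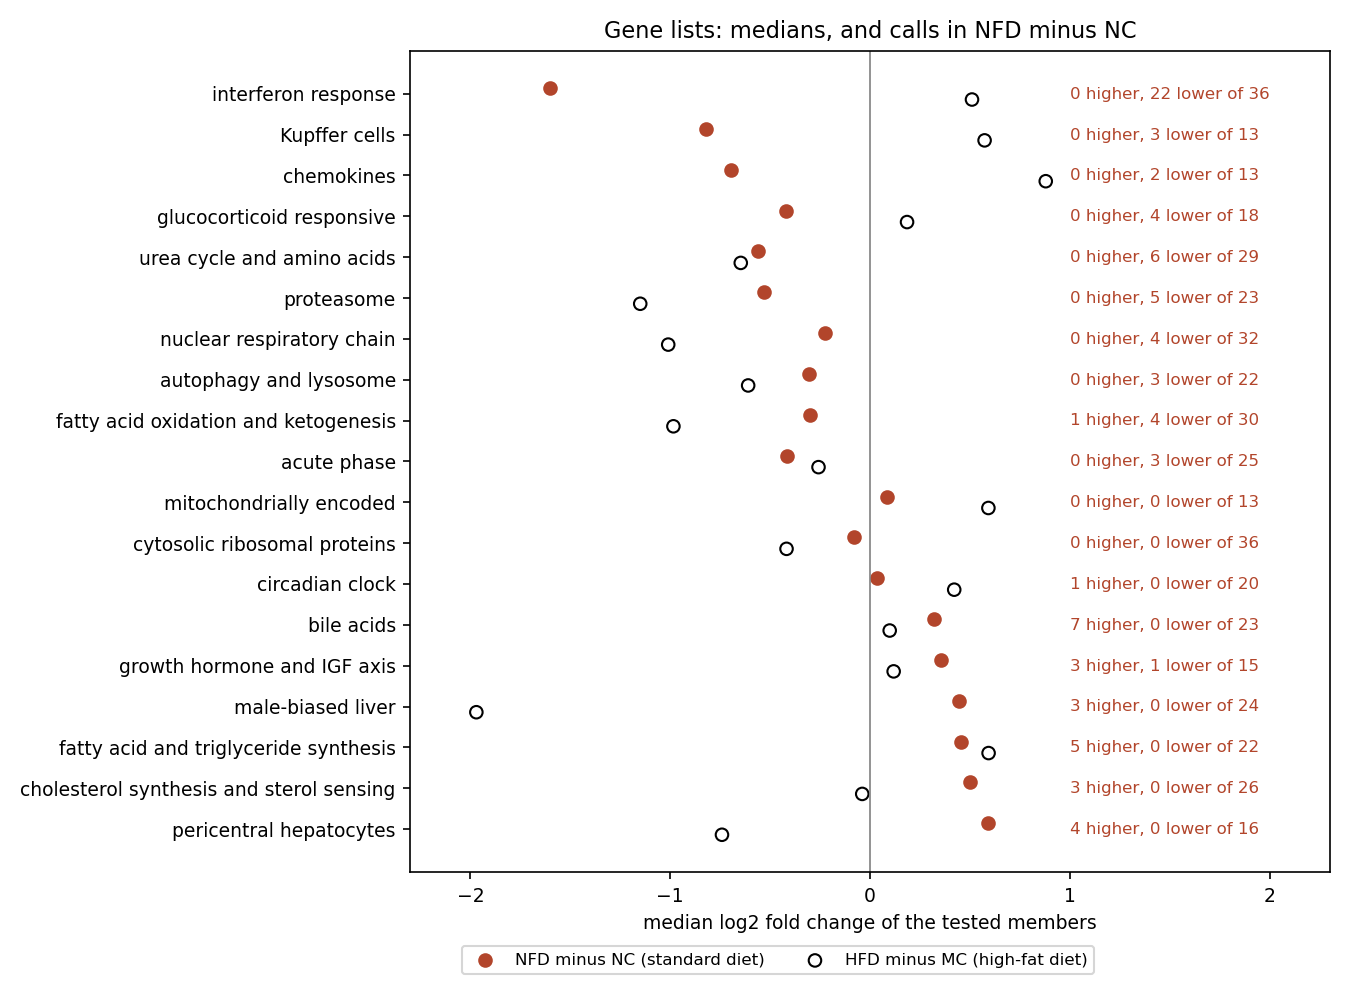
For 19 gene lists, the median log2 fold change of the tested members (x axis) in NFD minus NC (filled) and in HFD minus MC (open), with the calls in NFD minus NC printed beside them. The interferon median is -1.60 in NFD minus NC and 0.51 in HFD minus MC.

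Housekeeping groups were lower in a minority of members. Of 23 proteasome subunits 5 fell and 0 rose, with a median of -0.53. Psmd14, the deubiquitinase of the lid, was at 5.84, 7.54, 6.62, 3.91 and 6.8 CPM in NFD and at 15.3, 15.0, 14.3, 18.0 and 11.4 CPM in NC (log2 fold change -1.27, SE 0.22, adjusted p = 0.00547), without overlap. Psmb7, a catalytic subunit, fell by 0.84 and Psmc1, an ATPase, by 0.80. Of 32 nuclear respiratory chain genes 4 fell, Cox5a by 0.83, Sdhd by 0.88 and Ndufa4 by 0.92 among them, and of 22 autophagy and lysosome genes 3 fell, Atg5, needed to form autophagosomes, by 0.88, Gabarapl1 by 0.99 and Ctsl, a lysosomal protease, by 1.05. Of 17 body-temperature-responsive genes 3 chaperone genes fell, Hspe1 by 0.82 and Dnaja1 by 0.87 among them, and Cirbp and Rbm3, which cold raises, did not pass the test, with log2 fold changes of 0.04 and -0.92. The falls of this list were 7 without NFD5 and 4 without NC5, with Rbm3 (adjusted p = 0.0503 with all libraries) among them in both. They were 0 without NFD1, NFD2, NFD4, NC2 or NC4. In HFD minus MC 20 of the 23 proteasome and 25 of the 32 respiratory chain genes were lower, against 12.3% of all genes tested there. The 2988 calls of HFD minus MC over all genes were 702 with mitochondrial share as a covariate and 683 on TPM. List counts under these 2 settings are not given here. Without NFD5 the proteasome count was 11, the respiratory chain count 6 and the autophagy count 6, and without NC5 they were 7, 5 and 4. Without NFD4, NC1, NC2 or NC4 they were 1, 0 and 0, and with adjustment for GC content and transcript length they were 3, 2 and 3.

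Of 9 tested markers of RNA quality and nuclear RNA, 2 rose and 1 fell: Malat1 was at 164 ± 77.3 CPM in NFD and 75.2 ± 15.3 CPM in NC (SD, n = 5 each, adjusted p = 0.0297), Snhg11 rose by 2.20, and H1f2, a histone gene whose transcripts mostly lack a poly(A) tail, fell by 1.14. The 2 rises were 3 without NFD5 or NC5, 1 without NFD3, NFD4 or NC4 and 0 without NC1 or NC2, and the count of falls was 1 without NFD2, NFD5 or NC5 and 0 without any 1 of the other 7. Fold changes also ran with base composition. The median log2 fold change was -0.10 in the 10% of genes with the lowest GC content of the longest transcript (54 higher, 61 lower) and 0.35 in the 10% with the highest (89 higher, 10 lower). By transcript length it was 0.00 in the shortest 10% (38 higher, 36 lower) and 0.16 in the longest 10% (87 higher, 16 lower). With an adjustment of each library for both, chosen after seeing the data, 755 genes were called, 648 of them among the 908, and the interferon list had 21 lower. The part of composition in the other results was not tested beyond this.

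**Figure D5:**
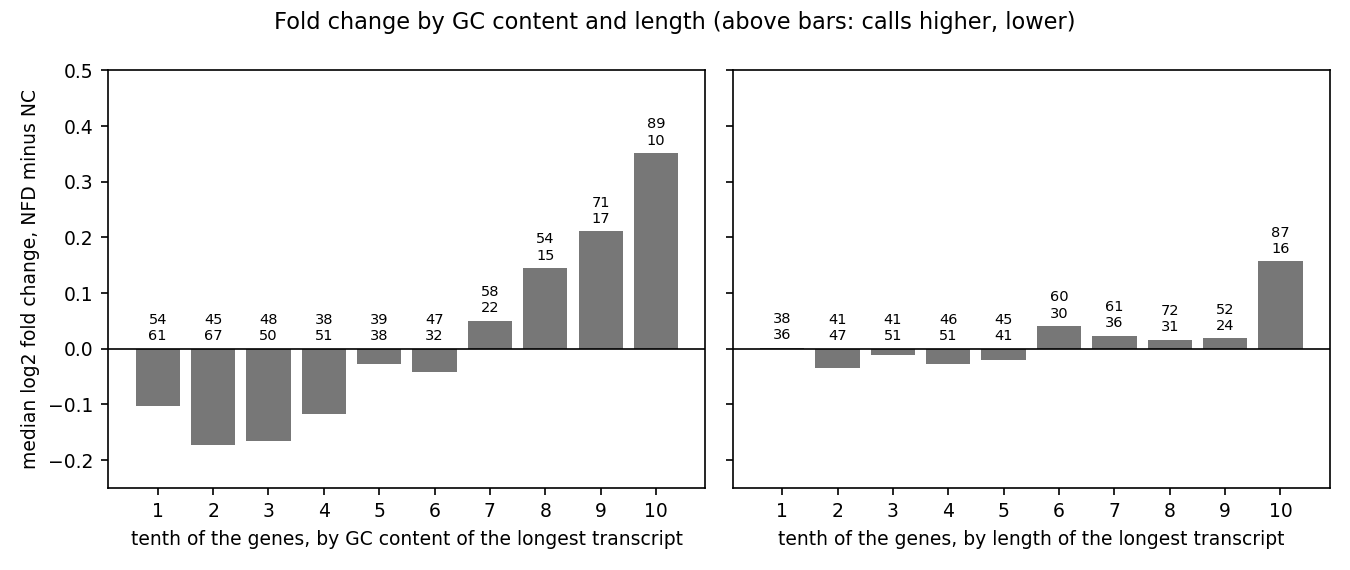
Median log2 fold change of NFD minus NC (y axis) in 10 bins of equal size of the tested genes ordered by GC content (left) and by length (right) of the longest transcript. The 2 numbers over each bar are genes called higher and, below, lower. The highest GC bin has a median of 0.35 with 89 higher and 10 lower.

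The clock genes, whose levels run with the hour of the day, gave 1 call among 20 tested, Noct, a rhythmic phosphatase, which rose by 1.16 (adjusted p = 0.0188). The spread within NC was wide. Dbp, a factor that peaks late in the day, was at 13.8, 6.18, 16, 8 and 6.36 CPM in NFD and at 3.47, 1.09, 1.29, 16.4 and 60.0 CPM in NC. Bmal1, which runs opposite to it, was at 2.58, 3.86, 3.48, 5.57 and 6.19 CPM in NFD and at 7.34, 7.35, 6.6, 2.93 and 0.0417 CPM in NC. NC5 was thus the highest of all 10 libraries for Dbp and the lowest for Bmal1, with NC4 next on both sides among NC. Per1, Per2, Per3, Nr1d1 and Ciart did not pass the test, with log2 fold changes of 0.57, 1.07, 0.39, 0.03 and -0.45. The part of the hour of killing in the other results was not tested.

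Lists with 0 called in NFD minus NC included the 13 mitochondrially encoded genes, 36 cytosolic ribosomal proteins, 17 stellate cell and collagen genes, 14 endothelial, 7 bile duct, 8 red blood cell, 11 cell cycle and 19 metal handling genes. A 0 here is a statement about this test. Without NFD5, 7 ribosomal protein genes were lower and 1 higher, and 3 metal handling genes were higher and 1 lower. Mki67, a proliferation marker, was at 0.376 ± 0.305 CPM in NFD and 0.833 ± 0.512 CPM in NC (SD, n = 5 each, adjusted p = 0.438). Cdkn1a, a cell cycle inhibitor, was at 1.9, 3.46, 1.67, 3.32 and 13.8 CPM in NFD and at 12.8, 26.3, 19.5, 2.54 and 2.25 CPM in NC, NFD5 lying with NC1 to NC3 and NC4 and NC5 with the other NFD libraries (adjusted p = 0.297). Mt1 and Mt2, metal-binding proteins, spread over 35.0 to 378 CPM and 19.7 to 144 CPM in NFD and over 39.6 to 313 CPM and 27.4 to 198 CPM in NC.

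Among called genes without overlap, with a mean of at least 1 CPM and with a name that is not a placeholder, the largest rises were in Hcn3, a pacemaker ion channel, Fbxl22, an F-box protein, and Fbf1, a protein of the ciliary base. Hcn3 was at 6.04, 2.76, 2.7, 2.67 and 2.27 CPM in NFD and at 0.204, 0.73, 0.503, 0.221 and 0.167 CPM in NC (log2 fold change 3.15, SE 0.51, adjusted p = 0.00404). Fbf1 was at 25.3 ± 15.4 CPM in NFD and 4.07 ± 1.35 CPM in NC (SD, n = 5 each, log2 fold change 2.63, adjusted p = 0.00198), and Fbxl22 rose by 2.76 from few counts. C4a, a complement paralog whose reads may be shared with its neighbour, rose by 2.33 (adjusted p = 0.041). It was called under 6 of 20 alternatives and in 1 of the 10 fits with 1 library left out. Among rises with the smallest adjusted p were Slc33a1, the acetyl-CoA carrier of the endoplasmic reticulum, by 1.72, Fnip1, a folliculin partner in nutrient sensing, by 1.62, Slc35d1, a nucleotide-sugar carrier, by 1.54, and Tmed5, a cargo protein of the secretory path, by 1.47. Tmed5 was at 346 ± 76.8 CPM in NFD and 125 ± 21.9 CPM in NC (SD, n = 5 each, adjusted p = 0.0023). Peg3, an imprinted gene that usually declines after birth, was 1.80 higher and the only call among 6 tested fetal liver and postnatal growth genes, of which 2 were higher without NFD5 or NC5, 1 without NFD2 or NFD3 and 0 without any 1 of the other 6 libraries. Gnrh1, encoding a reproductive hormone, had 84 counts over the NFD libraries, 9 to 25 in each, and 0 in NC. Its observed level in NFD was 30.5 times a floor of 3 counts over the NC group. That floor allows for counting error in NC only, and not for counting error in NFD or for spread between animals. Gnrh1 was below the level for testing in NFD minus NC. It was named for its small p in the fit of 20 libraries, in which the same 0 in NC takes part. MC had 46 counts over its libraries and HFD 45. In the fit of 20 libraries its difference of differences was -7.64 (adjusted p = 0.00515), a size that rests on the 0 in NC.

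Of the 908 genes, 367 were also called in HFD minus MC, 332 in the same direction, 184 higher and 148 lower, and 35 in the opposite direction, 9 of those higher and 26 lower in NFD. The 332 are 36.6% of the NFD minus NC calls and 11.1% of the HFD minus MC calls. Over all genes tested, 22.6% were called in HFD minus MC, 10.4% higher and 12.3% lower, and 7.45% in NFD minus NC. Both comparisons set the treatment study against the prevention study. Fasn rose by 1.68 in NFD minus NC and by 1.19 in HFD minus MC, Hcn3 by 3.15 and 1.95, Scarf1, a scavenger receptor, by 2.21 and 1.30, Trrap, a scaffold of histone acetyltransferases, by 1.59 and 1.14, and Pet100, an assembly factor of cytochrome oxidase, by 1.41 and 1.16. Tat fell by 1.54 and 1.94, Fabp2 by 1.45 and 1.45, Ppa1, an inorganic pyrophosphatase, by 1.14 and 1.61, Psmd14 by 1.27 and 1.29, Serpina3m by 1.48 and 1.24 and Cth by 1.45 and 1.32. Of the 908, 125 were called in the difference of differences, against 2.81% of all genes tested in that fit. The NFD and NC values that chose the 908 also enter that difference, so the count is a description only. Beside the interferon and male-biased genes, the 125 included Fbf1 (-2.34), Slc22a5, a carnitine carrier (-1.78), Plin4 (-1.60) and Tmed5 (-1.48), which rose in NFD and did not pass the test in HFD minus MC.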

How the data were processed

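Liver RNA (poly(A)-selected, stranded, paired-end, per the labels' protocols) was sequenced by the authors. The deposited expected counts per gene and the deposited TPM values were used. The submitters' processing notes name fastp, HISAT2, StringTie, DESeq2 and GRCm39 without versions or parameters, and the annotation release is not given in the sources used here. Between 4.02 and 7.03% of genes in a library had fractional expected counts, which were rounded.

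Genes passing edgeR's expression filter in NFD and NC were tested with edgeR 4.0.16 (TMM scaling, robust quasi-likelihood F-test, R 4.3.3) on the 10 libraries, with Benjamini-Hochberg adjustment over all tested genes and a threshold of 0.05. CPM use TMM-scaled library sizes, and a standard error was taken as the size of the log2 change over the square root of its F. HFD minus MC was fitted alike, and the difference of the differences in 1 fit of 20 libraries. An exact two-sided permutation test was used for total counts and mitochondrial share, whose smallest p here is 0.00794. Nuclear genes resembling mitochondrial ones were located by BLAST+ 2.17.0 (at least 80% identity over at least 50% of the gene).

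The members and the 56 gene lists were chosen with earlier results of these data known. Some lists share members, so their counts are not independent. Genes named are 31 fixed genes, up to 4 called members of each list by adjusted p, in a list with none called its most abundant member and the one with the smallest p, the 12 largest rises and the 12 largest falls without overlap and with a mean of at least 1 CPM, the 6 smallest adjusted p in each direction, the 6 genes of each direction called in both NFD minus NC and HFD minus MC with the smallest p, and the 4 of each direction with the smallest p in the difference of the differences. Names that are only placeholders were passed over in the ranked parts. On simulated counts of 12183 genes for NFD minus NC, 16 of 100 genes changed by a log2 of 1 and 81 of 100 changed by 2 were called, with 10 calls among 11983 unchanged genes. The simulation drew each gene on its own, without shifts shared by the genes of a library, such as those seen in NFD5. Its rates of calls therefore may not hold for the real libraries. Depth was 17000000 to 18500000 counts per library, of which 3440000 to 7450000 were outside mitochondrial genes and their copies, which limits low-level genes. No 2 of the 10 libraries held identical values. Alternatives were DESeq2 1.42.0 (size factors and Wald test), limma 3.58.1 on log2(TPM + 1), no filter, all libraries in 1 fit, the replicate number, mitochondrial share, mitochondrial genes left out, each library left out, and, chosen after seeing the data, adjustment for GC content and transcript length. Coordinates are GRCm39. Promoters are from RefSeq on GRCm38.p6. Some genes that the naming rule picked are not reported here.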

Additional observations from a re-analysis of the deposited data

Results flagged for a closer look

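In groups of 5 libraries, 1 library stood far from the other 4 in 27 of 280 gene and group pairs looked at, where chance gives about 1 in 20 groups. NC5 was the library in 11 of them. It was high at 9.13 CPM for Elovl6, 7.88 CPM for Srebf1, 400.0 CPM for Igf1, 60.0 CPM for Dbp, 2.75 CPM for Per2, 26.9 CPM for Slc35d1, 9.47 CPM for Pet100, 7.55 CPM for Lcn2, 313.0 CPM for Mt1 and 53.2 CPM for Onecut2, and low at 57.7 CPM for Sdhd. NFD5 was the library in 4, low at 0.61 CPM for Isg15 and high at 3.92 CPM for Ifit2, 11.7 CPM for Ifi207 and 13.8 CPM for Cdkn1a. NFD4 was apart at 6.58 CPM for Rtp4, 13.6 CPM for Hspe1, 20.5 CPM for Scarf1 and 6.17 CPM for Cirbp. NFD1 was apart at 6.04 CPM for Hcn3 and 5.09 CPM for Lcn2, NFD2 at 23 CPM for Acta2, a smooth muscle and stellate cell actin, and NFD3 at 233.0 CPM for Cth. NC1 was apart at 19.3 CPM for Zfp36, NC2 at 21.7 CPM for Ddit4 and 31.5 CPM for Serpina3g, and NC3 at 17 CPM for Slco1a1.

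Of 138 named genes tested in NFD minus NC and in the fit of 20 libraries, 33 differed between HFD minus MC and NFD minus NC (edgeR quasi-likelihood F-test). Over all 13867 genes of that fit 2.81% were called. Many of the 138 were named for their NFD and NC values, which enter this difference, and some for their small p in it. The count of 33 is therefore a description only. The log2 difference was above 0 in the interferon and immune genes, at 2.25 for Irf7, 2.6 for Ifit3, 4.57 for Oas3, 2.99 for Isg15, 2.24 for Rtp4, 1.87 for Usp18, 3.59 for Ifit2 and 3.73 for Ifi44. It was 2.53 for Ly6a, 1.81 for Plac8, 3.7 for Phf11b, 3.17 for Tgtp1, 2.87 for Ifi207, 2.28 for Cxcl9, 2.34 for the chemokine Ccl5, 2.96 for Fcgr1, 1.94 for C1qb, 1.57 for H2-Aa and 2.13 for Il1rn. Other genes above 0 were Zfp36 at 1.56, Tsc22d3 at 1.16, Ddit4 at 2.53, Mki67 at 4.34, the p53 target Trp53inp1 at 1.29 and Ctsc at 1.53. Below 0 were Plin4 at -1.6, Cyp4a12a at -3.1, Cyp2u1 at -1.94, Slco1a1 at -3.71, Nudt7, a peroxisomal coenzyme A hydrolase, at -2.55, Slc22a5 at -1.78, Fbf1 at -2.34 and Tmed5 at -1.48.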

How the results depend on the processing

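Against 908 genes called in NFD minus NC, DESeq2's Wald test called 1623, all libraries in 1 fit 2244, limma on TPM 54, and the fit without the library of highest mitochondrial share in each group 1804. Leaving out 1 library gave 189 to 2418. Calls higher in NFD were 59.9% of the 908, 25.9% on TPM, 51.3% without NFD5 and 51.2% without the libraries of highest mitochondrial share. The 908 kept their direction in each alternative, except 2 genes on TPM and 3 mitochondrial genes not tested where those were left out. The 2988 calls of HFD minus MC were 683 on TPM, 702 with mitochondrial share as a covariate and 1794 to 3909 with 1 library left out. The 389 calls of the difference of differences were 816, 801, 60, 101 and 850 with the Wald test, all libraries, TPM, the covariate and the libraries of highest share left out, and 181 to 869 with 1 library left out. The 332 genes shared in direction were 599, 665, 3, 143 and 709 under the same 5 settings, and 60 to 744 with 1 library left out. The mitochondrial share difference of 1.23 percentage points was -2.63 as a share of TPM and -1.92 to 4.3 with 1 library left out, being below 0 at -0.13 without NFD4, -1.92 without NFD5 and -0.20 without NC5. The causes were not tested. Among the named genes, no called one changed sign. Of those not called, Fgf21, Pdk4, Igfbp2, Cyp7a1, Cyp3a11, Bmal1, Dbp, Nr1d1, Ciart, Alb, Cirbp, Saa1, Lcn2, Mt1 and Mt2 changed sign in 1 to 5 of 20 alternatives.

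With the replicate block, 96 genes were called in NFD minus NC, 244 in the difference of differences and 34 shared in direction. Same-numbered libraries deviated with correlations of -0.382 to -0.0347, so the samples share only a number.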
